A study of Mus musculus with 18 samples.

Results

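Interferon response genes are the genes that cells switch on when interferon binds its receptor, and they form the cell's main antiviral programme. The set described here holds 34 such mouse genes, listed by name and role. Of these, 32 had a probe set of their own on the array among 18193 genes tested. Ifi44 had no probe set under its symbol, and the only probe set for Isg15, the ubiquitin-like modifier, was shared with Gm9706, so neither is counted.

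The samples came from an inhalation study of antimony trioxide, a metal oxide dust, in B6C3F1/N mice that were 5 to 6 weeks old at the start. Whole-body exposure was to 0, 3, 10 or 30 mg/m3 of aerosol over as many as 105 weeks, with 5 exposure days in each week of 6 hours and 12 minutes each. RNA was measured on 3′ expression arrays in 3 groups: lung of vehicle control mice, lung tumors labelled spontaneous, and lung tumors from mice exposed to antimony trioxide. Tumors were cut from the surrounding lung and frozen, and the labels give neither the sex, the age at collection nor the exposure concentration behind any tumor. Of 18 arrays, 15 were used: 5 control lungs (replicates 1 to 4 and 6), 4 spontaneous tumors (1 to 4) and 6 treated tumors (1 to 6). The 3 arrays left out (control 5, spontaneous tumors 5 and 6) had median correlations of 0.301 to 0.476 with the other arrays, against 0.92 to 0.973 for the arrays kept. The labels do not tie samples to separate animals, and the p-values rest on sample-to-sample spread alone, which may be technical.

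Alveolar type 2 markers had a mean level of 12.05 log2 units or more on all 15 arrays, with 5 of 6 measured markers called higher in each tumor group than in control lung. All 8 endothelial and all 5 ciliated markers fell in both tumor groups, whereas 4 of 9 alveolar macrophage markers rose in spontaneous and 5 of 9 in treated tumors. Of all tested genes 20.1% rose and 12.9% fell in spontaneous tumors, and 23.8% rose and 15% fell in treated tumors. Whole pieces of tissue were measured, so fewer cells of a type and less RNA per cell cannot be told apart. The signal of bioB, a control RNA added at hybridization, did not overlap between control lung (10.97 to 11.55 log2 units) and the tumors (10.44 to 10.72 in spontaneous and 10.53 to 10.88 in treated). Tissue and this technical difference therefore cannot be told apart in either comparison with control lung.

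Type I interferons act through a receptor whose JAK kinases activate transcription factors, among them STAT2. A complex that holds STAT2 and IRF9 binds interferon-stimulated response elements (ISREs) in promoters. Interferon gamma signalling acts on gamma-activated sites (GAS), and it induces IRF1, a factor that can also bind ISREs. In lung the targets include proteins that sense viral RNA, degrade it, block its translation or tag viral and host proteins with ISG15, and USP18 removes ISG15 and dampens receptor signalling.

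Promoters are shown because they carry the feature that ties the genes to this pathway independently of the array values. RefSeq promoters (build GRCm38.p6, 250 bases before to 50 after a transcription start) were given for 23 of the 32 measured genes. An ISRE core, searched on both strands as GAAA, any 2 bases, GAAA, lay in the promoter of 12 of these 23 genes (52.17%), against 3.63% of all tested genes with a promoter. By promoter rather than gene, 40.62% of 32 member promoters and 3.03% of 18109 promoters of tested genes held one. A GAS match, searched as TTCNNNGAA on both strands, lay in 8 of 23 genes (34.78%) against 8.57% of tested genes, and the GAS match of Bst2 overlaps its ISRE core. The stretches below are those of the 6 ISRE-bearing genes with the smallest p against control lung, and of Irf1 for its GAS match, chosen after its values were seen. Each runs 5′ to 3′ on the strand of its gene, with the ISRE cores in capitals (the GAS match in Irf1), and a core on the other strand reads TTTC, any 2 bases, TTTC.
Stat2, chr10:128270248-128270325, + strand: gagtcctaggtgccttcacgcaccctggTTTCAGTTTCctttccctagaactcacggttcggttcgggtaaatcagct
Ifit3, chr19:34583333-34583456, + strand: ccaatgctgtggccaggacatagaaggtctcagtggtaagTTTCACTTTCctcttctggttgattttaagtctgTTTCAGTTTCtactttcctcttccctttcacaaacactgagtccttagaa
Ifit1, chr19:34640745-34640853, + strand: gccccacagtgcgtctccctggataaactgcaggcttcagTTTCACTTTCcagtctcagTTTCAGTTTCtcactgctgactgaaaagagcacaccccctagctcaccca
Gbp3, chr3:142559959-142560043, + strand: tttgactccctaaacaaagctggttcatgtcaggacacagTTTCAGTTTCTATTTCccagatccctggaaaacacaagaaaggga
Bst2, chr8:71537547-71537642, - strand: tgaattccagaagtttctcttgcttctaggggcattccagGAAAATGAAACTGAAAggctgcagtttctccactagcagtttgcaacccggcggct
Gbp2, chr3:142620564-142620653, + strand: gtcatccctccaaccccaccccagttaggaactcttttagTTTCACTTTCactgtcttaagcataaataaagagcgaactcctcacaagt
Irf1, chr11:53769884-53769972, + strand: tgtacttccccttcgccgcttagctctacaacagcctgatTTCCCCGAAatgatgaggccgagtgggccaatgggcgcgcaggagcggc

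Ifit3 and Ifit1 each carry 2 separate cores, Gbp3 and Bst2 each carry 2 cores that share bases, and Stat2 and Gbp2 carry 1. The first match lies 45 bases before the start in Gbp3, 59 in Gbp2, 104 in Ifit1, 130 in Bst2, 156 in Ifit3 and 222 in Stat2. The GAS match of Irf1 lies 90 bases before its start. A match is a run of letters and not a measured binding site.

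In treated tumors 16 of the 32 measured interferon response genes were lower than in control lung. These are 50% of the set, where 15% of all tested genes fell in that comparison, and 1 gene rose, where 23.8% of all tested genes rose (38.8% were called in either direction). The genes that fell spanned the pathway's antiviral effectors (Ifit1, Ifit2, Ifit3, Rsad2, Bst2), its transcription factors (Irf1, Stat2), the 2',5'-oligoadenylate synthetase family (Oas2, Oasl2), guanylate-binding proteins (Gbp2, Gbp3) and Usp18. Their log2 fold changes ran from -0.92 in Parp14 to -2.36 in Ifit3, where 1 log2 unit is a 2-fold difference. Calls are limma's moderated test with Benjamini-Hochberg adjustment over all 18193 genes at an adjusted p under 0.05. The median log2 fold change was -0.86 over the 32 genes and 0.089 over all genes tested, and 28 genes lay below 0 and 4 above. The 16 calls became 1, Oas2, when all 18 arrays were fitted, and 0 when bioB entered the model as a covariate, where the members' median was -1.02 with a median standard error of 0.57 in place of 0.30.

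**Figure D1:**
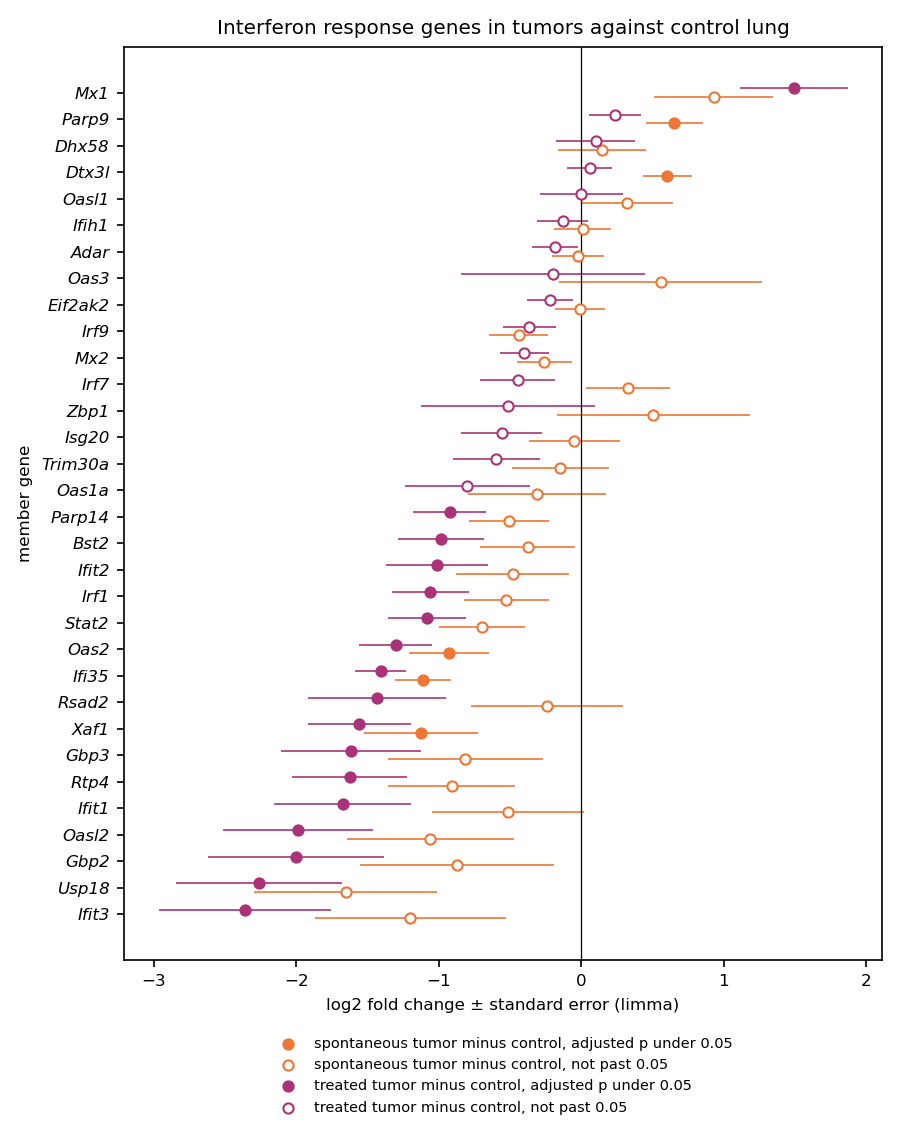
The log2 fold change with its standard error (limma) of each of the 32 interferon response genes is plotted for spontaneous tumors against control lung (n = 4 and 5) and treated tumors against control lung (n = 6 and 5). Most points of the treated comparison lie left of 0, down to -2.36 in Ifit3, and Mx1 lies farthest right at 1.49.

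In spontaneous tumors 5 of the 32 genes differed from control lung by the same test, where 33% of all tested genes did. Dtx3l and Parp9, a ubiquitin ligase and its ADP-ribosyltransferase partner, rose, while Ifi35, Oas2 and Xaf1 fell. That is 2 genes higher (6.25%, against 20.1% of all tested genes) and 3 lower (9.38%, against 12.9%), so neither share exceeded the share over all genes. The median log2 fold change was -0.34, against 0.12 over all genes, with 23 genes below 0 and 9 above. That median was -0.66 without spontaneous tumor 3, -0.15 without tumor 1, -0.13 without tumor 4, -0.12 without control 2 and -0.61 with all 18 arrays. With the actin 3′ to 5′ difference, an RNA quality measure, as a covariate it was -0.04, with 17 genes below 0 and 15 above, and 1 gene fell. Without spontaneous tumor 3 the count that fell was 11 and the count that rose was 0. Leaving out control 1, spontaneous tumor 1 or spontaneous tumor 4 left 1 gene that fell, and leaving out control 1, 3 or 4 left 1 that rose. With all 18 arrays, and likewise with bioB as a covariate, no gene was called in either direction. In a fit of the 2 groups alone 1 gene rose.

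Among the transcription factors, Irf1 and Stat2 fell in treated tumors and Irf7 and Irf9 were not called. Irf1, which drives interferon gamma targets, was 10.80, 10.87, 10.98, 10.73 and 10.96 log2 units in the 5 control lungs, 9.37, 10.81, 11.22 and 9.97 in the 4 spontaneous tumors, and 9.33 to 10.31 (median 9.91) in the 6 treated tumors. All treated tumors lay below all controls, whereas spontaneous tumor 3 lay above them all and spontaneous tumors 1 and 4 below. The treated difference was -1.06 ± 0.27 (log2, SE; adjusted p = 0.00588). Stat2, part of the ISRE-binding complex, was 8.16, 8.95, 8.0, 7.84 and 8.16 in control lung, 7.03, 7.79, 8.40 and 6.86 in spontaneous tumors, and 6.50 to 7.61 (median 7.16) in treated tumors. Treated tumors again lay below every control, with a difference of -1.08 ± 0.27 (adjusted p = 0.00564). Irf7, the factor that amplifies interferon production, was 6.94, 8.27, 8.25 and 6.94 in spontaneous tumors, so tumors 2 and 3 stood above all 5 controls (6.93 to 7.92) and above all 6 treated tumors (6.49 to 7.14). Irf9, the DNA-binding partner of the STATs, differed by -0.36 ± 0.19 in treated tumors (adjusted p = 0.141).

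Of the OAS family, whose enzymes make the second messenger that activates RNase L, Oas2 and Oasl2 fell in treated tumors and the other three measured members were not called. Oas2 was 8.03, 8.11, 7.38, 6.87 and 8.01 in control lung, 6.22, 7.24, 7.0 and 6.54 in spontaneous tumors, and 5.71 to 6.79 (median 6.47) in treated tumors. It fell by 0.93 ± 0.28 in spontaneous tumors (adjusted p = 0.0201), which overlapped the controls, and fell by 1.30 ± 0.26 in treated tumors (adjusted p = 0.000912), which did not. The spontaneous call was lost without control 1, spontaneous tumor 1 or spontaneous tumor 4. Oasl2, an OAS-like protein with ubiquitin-like domains, was 8.46, 10.09, 8.40, 7.94 and 8.53 in control lung, 6.34, 8.55, 9.2 and 6.42 in spontaneous tumors, and 5.51 to 7.49 (median 6.77) in treated tumors. The treated tumors were 3.97-fold lower than control lung (log2 -1.99 ± 0.53, adjusted p = 0.00752). Oas3 showed the widest control spread of the 32 genes (SD 1.29), with 7.96 in control 2 against 4.79 to 5.95 in the other controls, and 7.14 and 8.13 in spontaneous tumors 2 and 3 against 4.75 and 5.39 in tumors 1 and 4. Oas1a differed by -0.80 ± 0.44 in treated tumors (adjusted p = 0.168).

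Of the 12 measured antiviral effectors, 7 fell (58.3%) and 1 rose (8.33%) in treated tumors, where 15% of all tested genes fell and 23.8% rose. Ifit3, which partners Ifit family proteins that bind foreign RNA ends, was 10.17, 12.17, 10.40, 10.28 and 10.71 in control lung, 7.48, 10.92, 11.08 and 8.70 in spontaneous tumors, and 7.16 to 9.42 (median 8.41) in treated tumors. Every treated tumor lay below every control, and the means differed 5.14-fold (log2 -2.36 ± 0.60, adjusted p = 0.00598). Ifit1, which blocks translation of viral RNA, was 8.5, 10.49, 8.03, 8.34 and 8.44 in control lung, 7.28, 8.89, 9.64 and 7.18 in spontaneous tumors, and 6.37 to 7.65 (median 7.14) in treated tumors. It fell 3.19-fold in treated tumors (adjusted p = 0.012), where again no value reached a control. Ifit2, of the same family, fell by 1.01 ± 0.36 (adjusted p = 0.035), but its highest treated tumor (8.33) lay above 3 of the 5 controls. Its call held in 8 of the 15 fits that each left out 1 array, where the adjusted p reached 0.0851: it was lost without control 1, 2 or 4 or treated tumor 2, 3, 4 or 5, and with the replicate number as a block.

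Rsad2, which encodes viperin, an enzyme that makes a chain-terminating nucleotide, was 9.64, 9.11, 7.74, 8.17 and 8.57 in control lung, 7.63, 9.30, 9.74 and 6.96 in spontaneous tumors, and 5.99 to 7.65 (median 7.40) in treated tumors. It fell 2.70-fold in treated tumors (adjusted p = 0.0285), a call lost without control 1, control 2 or treated tumor 4 (adjusted p up to 0.0837). Bst2, which encodes tetherin, the protein that holds budding virus at the cell surface, fell by 0.99 ± 0.30 (adjusted p = 0.017), and Xaf1, a pro-apoptotic partner of XIAP, fell by 1.56 ± 0.36 (adjusted p = 0.00307). Xaf1 was also called in spontaneous tumors, at -1.12 ± 0.40 (adjusted p = 0.0421). That call held in 8 of 15 fits with 1 array left out and in 5 of 11 other settings. It was lost without control 1, 2, 3 or 6, spontaneous tumor 1 or 4, or treated tumor 2, with an adjusted p of up to 0.142. It was also lost with median centring, the mean of its probe sets, the actin covariate and the 2 groups alone. Isg20, an exonuclease, Mx2, Eif2ak2, the kinase PKR that halts translation, and Adar, the RNA-editing enzyme, were not called, with treated differences between -0.18 and -0.56.

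Ifi35 showed the smallest p of the set in both comparisons with control lung. This leucine-zipper protein was 12.20, 11.89, 11.72, 12.13 and 11.85 in control lung, 10.20, 11.25, 11.21 and 10.75 in spontaneous tumors, and 10.29 to 10.78 (median 10.60) in treated tumors. Both tumor groups lay below all controls, with differences of -1.11 ± 0.20 (adjusted p = 0.000564) and -1.41 ± 0.18 (adjusted p = 2.09e-05). It was the only one of the 32 genes whose spontaneous tumors all lay below all controls, where 11.4% of all tested genes did so. In treated tumors 15 of the 32 genes had that separation, where 10.1% of all tested genes did. None lay wholly above the controls in either tumor group, where 17.8% of all tested genes did in spontaneous and 14.4% in treated tumors.

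Mx1, which encodes a dynamin-like GTPase, went the other way and was the only gene called higher in treated tumors. It was 5.59, 6.87, 5.00, 5.42 and 5.75 in control lung, 6.78, 6.04, 7.01 and 6.79 in spontaneous tumors, and 6.24 to 8.17 (median 7.14) in treated tumors. Control 2 lay within the tumor range and the other 4 controls lay below all tumors. The treated difference was 1.49 ± 0.38 (adjusted p = 0.00539), the spontaneous one 0.93 ± 0.42 (adjusted p = 0.1). Mx1 was not called with bioB as a covariate, and its mean level was below the median gene, so it left the test under the filter on low values.

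**Figure D2:**
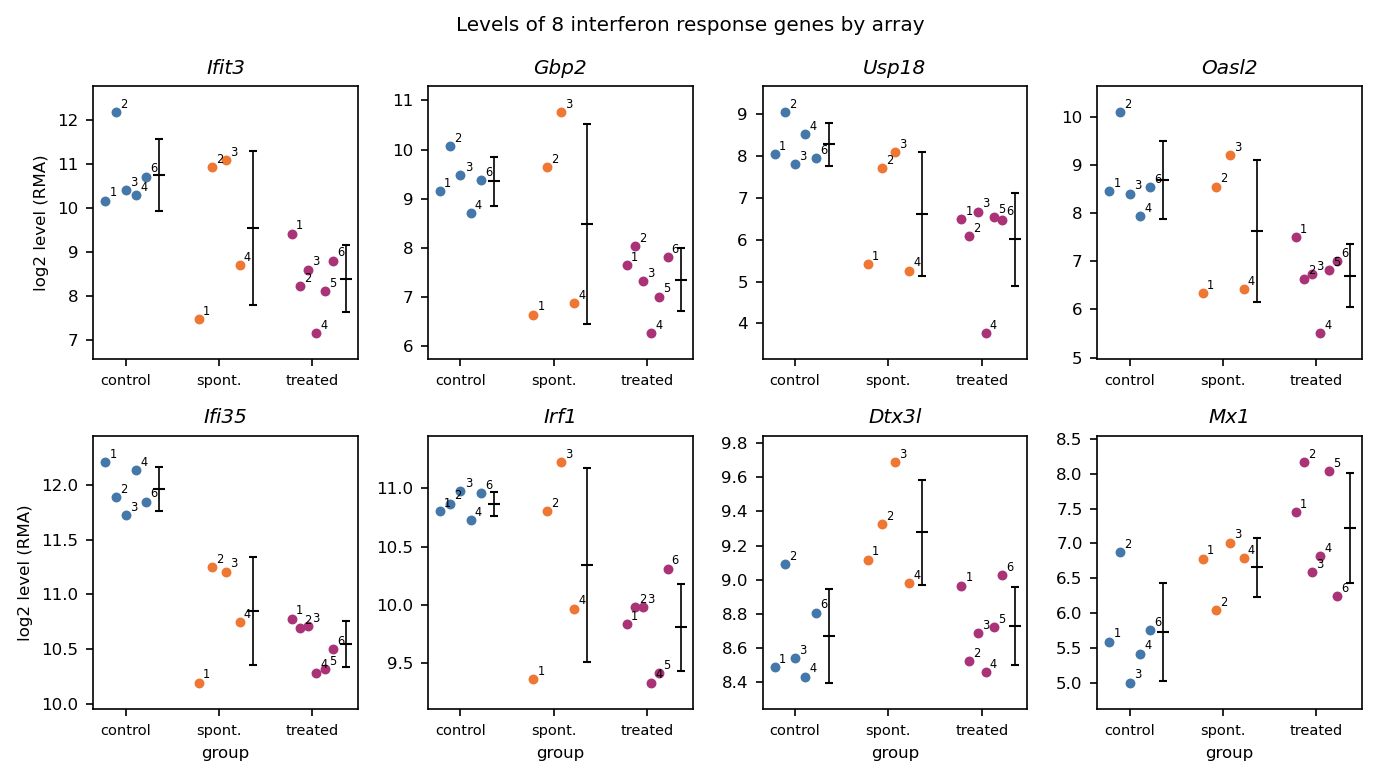
Log2 level on each array of 8 interferon response genes, with 5 control lungs, 4 spontaneous tumors and 6 treated tumors per panel and the group mean ± SD. Treated tumors of Ifit3, Gbp2, Usp18, Oasl2, Ifi35 and Irf1 lie below all controls, the spontaneous tumors of Ifit3 and Gbp2 split into a high and a low pair, and Mx1 is higher in most tumors.

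The 3 sensors of foreign nucleic acid were not called in any comparison. Ifih1, which encodes the RNA sensor MDA5, and Dhx58, its regulator LGP2, differed by -0.13 ± 0.18 and 0.10 ± 0.28 in treated tumors. Zbp1, which senses Z-form nucleic acid, had one of the widest spreads: 7.34, 9.99, 7.31, 7.46 and 9.07 in control lung, 7.03, 9.87, 10.35 and 7.72 in spontaneous tumors, and 6.78 to 8.23 (median 7.81) in treated tumors. Usp18, the ISG15 protease, fell 4.81-fold in treated tumors (log2 -2.26 ± 0.58, adjusted p = 0.00616). Its levels were 8.05, 9.04, 7.81, 8.51 and 7.95 in control lung, 5.42, 7.70, 8.08 and 5.26 in spontaneous tumors, and 3.78 to 6.67 (median 6.48) in treated tumors. Spontaneous tumors 1, 2 and 4 lay below all controls, with tumor 2 just under them, and tumor 3 lay within their range. The probe set shared by Isg15 and Gm9706 differed by -0.82 ± 0.39 in treated tumors (adjusted p = 0.12).

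The guanylate-binding proteins, GTPases that attack pathogen vacuoles and are strong interferon gamma targets, both fell in treated tumors. Gbp2 was 9.15, 10.08, 9.47, 8.70 and 9.38 in control lung, 6.64, 9.64, 10.75 and 6.89 in spontaneous tumors, and 6.27 to 8.04 (median 7.49) in treated tumors. It fell 4.0-fold (log2 -2.0 ± 0.62, adjusted p = 0.0179), and its SD of 2.04 in spontaneous tumors was the largest of the 32 genes. Gbp3 fell 3.06-fold (log2 -1.61 ± 0.49, adjusted p = 0.0165). Rtp4, a receptor-transporting protein, fell 3.08-fold (log2 -1.62 ± 0.40, adjusted p = 0.00491), and Trim30a, a TRIM-family regulator, was not called.

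Parp9, Dtx3l and Parp14 are neighbours on chromosome 16 and did not share a direction. Dtx3l was 8.49, 9.09, 8.54, 8.43 and 8.81 in control lung, 9.12, 9.33, 9.69 and 8.98 in spontaneous tumors, and 8.46 to 9.03 (median 8.71) in treated tumors. Spontaneous tumors 1, 2 and 3 lay above all controls, and the difference was 0.61 ± 0.17 (adjusted p = 0.0152), a call lost without tumor 3 (adjusted p = 0.0583). Parp9 was 8.25, 9.21, 8.28, 8.28 and 8.96 in control lung, 9.08, 9.19, 9.69 and 9.04 in spontaneous tumors, and 8.66 to 8.99 (median 8.84) in treated tumors. Its spontaneous difference was 0.65 ± 0.20 (adjusted p = 0.0217), with control 2 inside the tumor range. The Parp9 call was lost without control 1, 3 or 4 or spontaneous tumor 3, and in the fit of the 2 groups alone. Parp14, an ADP-ribosyltransferase, instead fell in treated tumors, by -0.92 ± 0.26 (adjusted p = 0.00987). Parp9 and Dtx3l overlap in the annotation, and whether their probes read 1 transcript was not tested.

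The 4 spontaneous tumors were not alike. Spontaneous tumor 3 was the highest of the 4 for 25 of the 32 genes and tumor 2 for the other 7, while tumor 1 was the lowest for 18 and tumor 4 for 13. Over all tested genes tumor 3 was highest for 19.2% and tumor 2 for 39.1%, and tumor 1 was lowest for 37.6% and tumor 4 for 21.2%. The mean level of the 32 genes was 9.04 in tumor 3 and 8.63 in tumor 2, against 7.34 and 7.50 in tumors 1 and 4. The first pair lay within the control range (8.10 to 9.21, control 2 the highest) and the second pair fell within the treated range (7.07 to 7.92). Tumors 2 and 3 exceeded all 6 treated tumors for 27 and 28 of the genes (26.4% and 13.7% of all tested genes), and tumors 1 and 4 for 2 and 1 (14.3% and 10.2%). Tumors 1 and 4 lay below all 5 controls for 24 and 23 genes (29.1% and 23.6% of all tested genes), and tumors 2 and 3 for 4 and 1 (20.2% and 22.5%).

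The median SD of the 32 genes was 0.782 in spontaneous tumors, against 0.242 over all genes. It was 0.472 against 0.207 in control lung and 0.416 against 0.253 in treated tumors. Among controls, control 2 was highest for 28 of the 32 genes (22% of all tested genes), and among treated tumors, tumor 4 was lowest for 20 (19.9%). Without control 2 the members' median difference was -0.65 in treated tumors, and 14 genes fell in treated tumors.

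**Figure D3:**
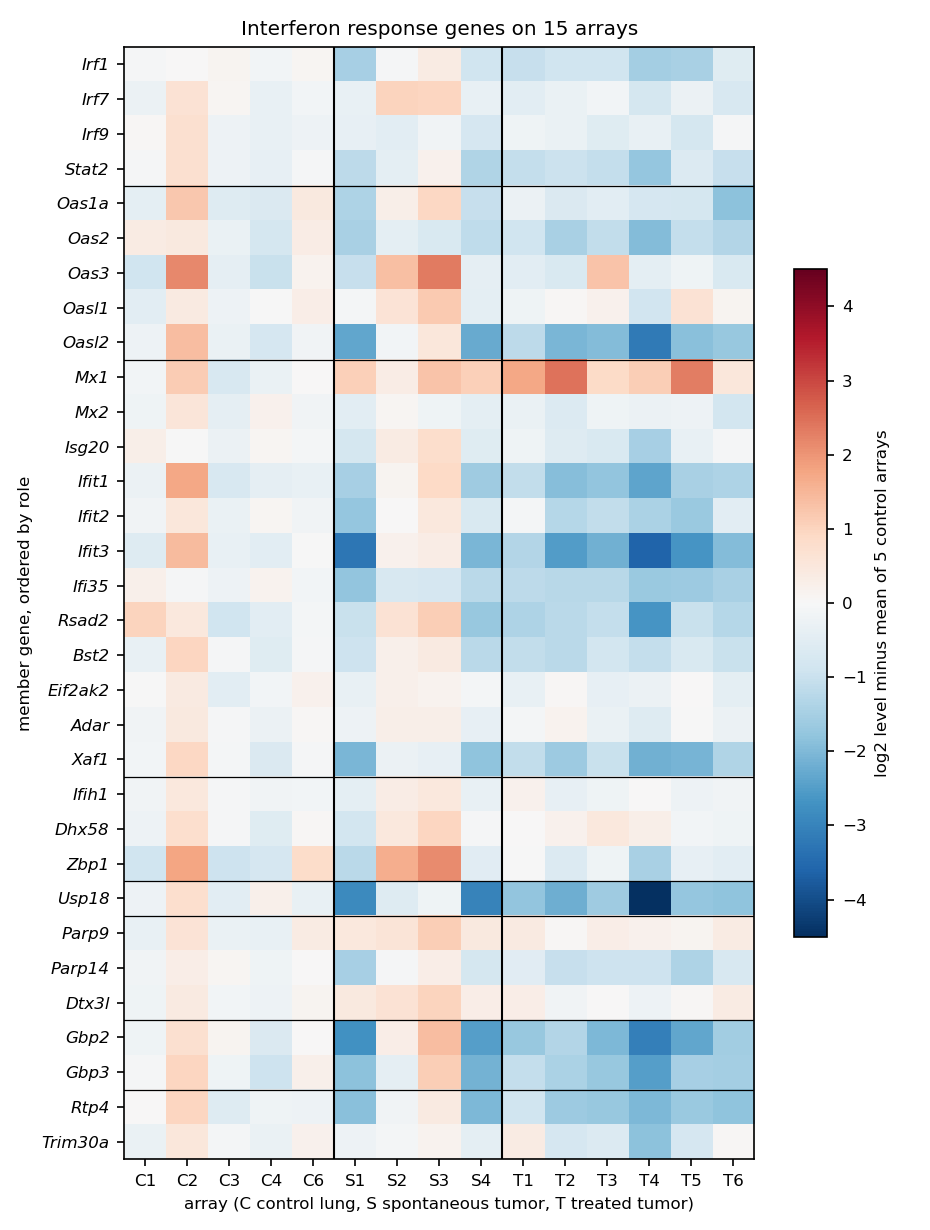
Level of 32 interferon response genes (ordered by role) on each of 15 arrays minus the mean of the 5 control lungs, in log2 units on a colour scale of ±4.5. Control 2 and spontaneous tumors 2 and 3 lie above the control mean for 30, 20 and 26 genes (50.7%, 65.7% and 60.1% of all tested genes). For spontaneous tumor 2 the share does not exceed that over all genes. Spontaneous tumors 1 and 4 lie above the control mean for 3 genes each (53.4% and 59.2%), and the 6 treated tumors for 4 to 6 (53.2% to 62.7%).

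Between treated and spontaneous tumors no interferon response gene was called, where 0.055% of all tested genes (10 of 18193) were, 0.033% higher and 0.022% lower. Dtx3l, Irf7, Rsad2, Ifit1 and Parp9 had an unadjusted p under 0.05, and the smallest adjusted p was 0.331, for Dtx3l (-0.55 ± 0.17). The median difference was -0.50, against -0.022 over all genes, with 30 genes below 0 and 2, Mx1 and Irf9, above. This median rested in part on single tumors: it was -0.20 without spontaneous tumor 3, -0.37 without tumor 2, -0.65 without tumor 4 and -0.75 without tumor 1. With all 18 arrays it was -0.14, with 20 genes below 0 and 12 above. Parp9 was the only gene with all treated tumors below all spontaneous tumors, where 0.797% of all tested genes had that separation, and none had the reverse separation, which 0.83% of all tested genes had. With standard errors of up to 0.69, as for Oas3, differences of the size seen for Ifit3 (-1.16 ± 0.65) were not resolved with 6 and 4 arrays. Both comparisons with control lung share their 5 controls.

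Of the interferons themselves, 9 of 18 listed genes were measured. Their mean level was 4.44 to 4.86 on all 15 arrays. Ifna4 rose in spontaneous tumors (0.50 ± 0.14, adjusted p = 0.015) and Ifna1 fell in treated tumors (-0.36 ± 0.13, adjusted p = 0.042). Each is 1 of 9 (11.1%), where 20.1% of all tested genes rose in spontaneous tumors and 15% fell in treated tumors. The mean level of Ifna4 was low, at 3.31 in control lung and 3.80 in spontaneous tumors, below the mean of its list. Of 9 measured receptors and kinases, 2 fell (22.2%) in spontaneous tumors, and 3 fell (33.3%) and 1 rose (11.1%) in treated tumors. Of all tested genes 12.9% fell in spontaneous tumors, and 15% fell and 23.8% rose in treated tumors. With 9 genes measured, the shares of this list rest on few calls. Ifngr1, the ligand-binding chain of the interferon gamma receptor, fell by 1.09 ± 0.18 in spontaneous tumors and fell by 0.92 ± 0.16 in treated tumors (adjusted p = 0.00035 and 0.000448). Jak1, the kinase that both interferon receptor types use, fell as well, with differences of -0.77 ± 0.18 and -0.96 ± 0.17 (adjusted p = 0.00488 and 0.000318), and Ifngr2, the second chain, rose by 0.56 ± 0.21 in treated tumors (adjusted p = 0.0464).

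Of 17 sensors and adapters, 3 rose in spontaneous tumors, and 3 rose and 1 fell in treated tumors. These shares, 17.6% higher in each and 5.88% lower in treated tumors, were below those over all tested genes (20.1% and 23.8% higher, 15% lower). Tlr4, the endotoxin receptor, rose by 1.54 ± 0.18 and 1.43 ± 0.16 (adjusted p = 1.36e-05 and 6.88e-06), with both tumor groups above all controls. Sting1, the adapter for cytosolic DNA, rose by 0.87 ± 0.26 and 0.76 ± 0.24 (adjusted p = 0.0184 and 0.0182). Ddx58, the RNA sensor RIG-I, fell by 1.10 ± 0.28 in treated tumors (adjusted p = 0.00568). Of 7 measured negative regulators, 1 rose (14.3%) in each comparison with control lung and 2 fell (28.6%) in treated tumors. The same shares over all tested genes apply here: 20.1% and 23.8% higher, and 15% lower in treated tumors. Ptpn2, a phosphatase of JAKs and STATs, rose in both comparisons (0.96 ± 0.10 and 1.08 ± 0.094, adjusted p = 7.54e-06 and 5.23e-07), and Samhd1, a dNTP hydrolase, and Irf2, an antagonist of IRF1, fell in treated tumors (-0.87 ± 0.26 and -0.39 ± 0.15, adjusted p = 0.0156 and 0.0486).

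Of 59 other interferon-stimulated genes listed, 48 were measured. Of these, 24 fell (50%) and 3 rose in treated tumors, with a median log2 fold change of -0.54, and 9 fell and 3 rose in spontaneous tumors, with a median of -0.18. The spontaneous shares were 18.8% lower, against 12.9% of all tested genes, and 6.25% higher, against 20.1%. In treated tumors 15% of all tested genes fell and 23.8% rose. Slfn5, a Schlafen family protein, fell by 2.16 ± 0.40 in spontaneous and fell by 2.47 ± 0.36 in treated tumors (adjusted p = 0.000781 and 7.9e-05). Ifitm1, a membrane protein that blocks viral entry, fell in both, with differences of -3.15 ± 0.51 and -2.65 ± 0.46 (adjusted p = 0.00027 and 0.000354). Of 14 interferon gamma targets, 1 rose and 1 fell (7.14% each) in spontaneous tumors, against 20.1% and 12.9% of all tested genes, with a median of 0.17. In treated tumors 2 fell (14.3%, against 15% of all tested genes), with a median of -0.26. Ido1, which degrades tryptophan, fell in both comparisons (-1.12 ± 0.25 and -1.33 ± 0.23, adjusted p = 0.00332 and 0.000325). Psmb10, an immunoproteasome subunit, fell in treated tumors (-0.60 ± 0.22, adjusted p = 0.0389), and Ciita, the master regulator of MHC class II, rose in spontaneous tumors (1.16 ± 0.33, adjusted p = 0.0145). Cxcl9, a T cell attractant, was 9.05 and 9.81 in spontaneous tumors 2 and 3 and 5.76 and 3.73 in tumors 1 and 4.

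Among tumors, T and NK cell markers were highest in spontaneous tumors 2 and 3, and among controls in control 2. Their mean level was 7.21 and 7.31 in spontaneous tumors 2 and 3 and 5.96 and 6.03 in tumors 1 and 4, 6.58 to 8.29 in control lung (7.99 in control 6, the next after control 2), and 5.74 to 6.35 in treated tumors. Of 12 measured markers 9 fell in treated tumors (75%) and 4 in spontaneous tumors (33.3%). Over all tested genes 15% fell and 23.8% rose in treated tumors, and 12.9% fell and 20.1% rose in spontaneous tumors. The same shares apply to the other marker lists here, and the lists of 5 rest on few calls. The summed linear level of the T and NK cell markers ran from 1897 to 5597 in control lung, 1289 to 3118 in spontaneous and 1396 to 1965 in treated tumors. None is at 0 on this scale. The leading markers Cd3d, Cd3e and Cd3g had means of 7.71, 8.49 and 7.96 in control lung and 6.63, 6.28 and 6.27 in treated tumors. Endothelial markers also moved with the groups, with a summed level of 18897 to 32228 in control lung and at most 6769 in tumors. Alveolar macrophage markers summed to 2396 to 32029 (median 2673) in control lung. They summed to 15335 to 30088 (median 19668) in spontaneous and 13066 to 37996 (median 17351) in treated tumors. Their control range thus spanned all spontaneous tumors and overlapped the treated ones. B and plasma cell markers fell for 3 of 5 in spontaneous and 4 of 5 in treated tumors, with summed levels of 903 to 4471 in control lung, 445 to 1950 in spontaneous and 418 to 1885 in treated tumors. Conventional dendritic cell markers fell for 2 and 3 of 5, with summed levels of 745 to 930, 295 to 433 and 215 to 361. Of 5 markers of plasmacytoid dendritic cells, the main makers of type I interferon, 3 rose in spontaneous tumors, and 2 rose and 2 fell in treated tumors. Their summed level was 707 to 808 in control lung, 1977 to 3788 in spontaneous and 789 to 1788 in treated tumors. Of the 5, Cox6a2 differed most from control lung, by 2.94 log2 units in spontaneous and 1.01 in treated tumors. The median difference of the 5 was 0.43 and 0.19, with 3 above 0 and 2 below in each. The sum therefore does not stand for all 5 markers. Cox6a2 was also called lower in treated than in spontaneous tumors (-1.93 ± 0.32, adjusted p = 0.0485). Siglech, a defining marker of that cell type, was not called in spontaneous tumors (adjusted p = 0.335) and fell in treated tumors (adjusted p = 0.0296). The part of these cell types in the results was not tested.

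**Figure D4:**
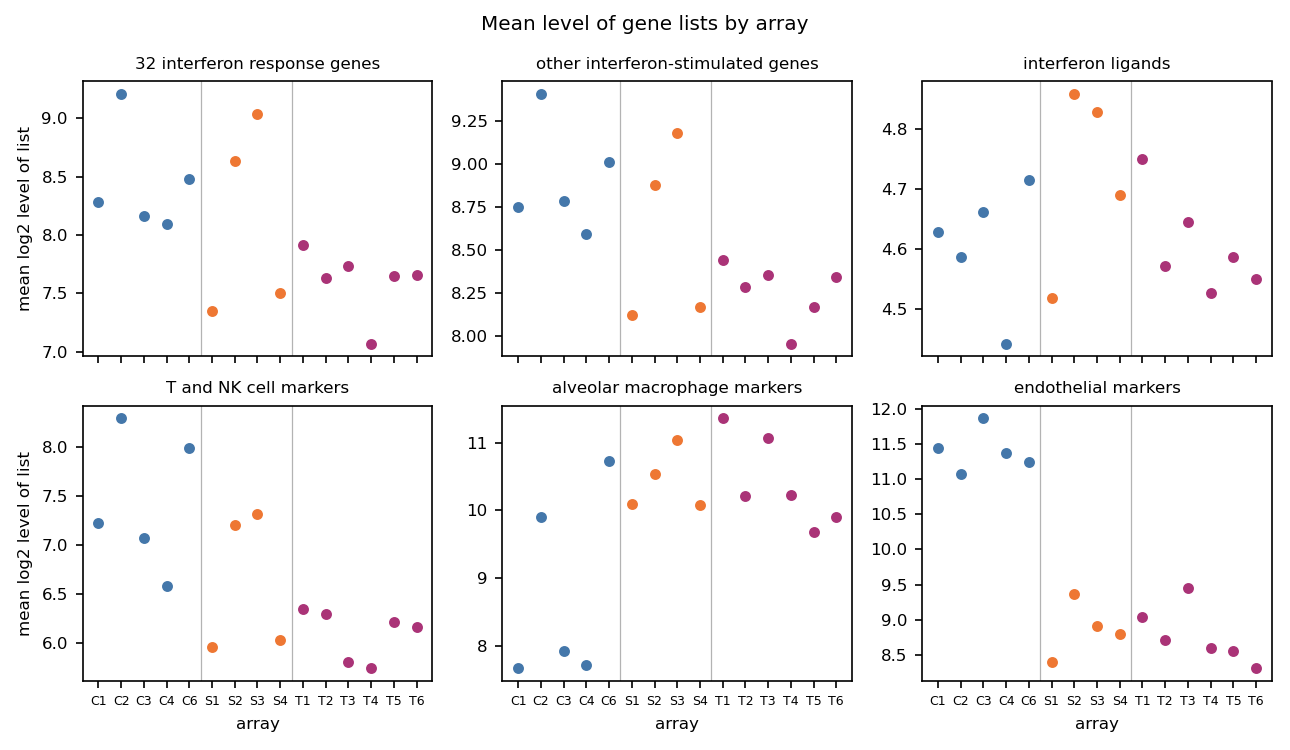
Mean log2 level per array of 6 gene lists, with 5 control lungs, 4 spontaneous tumors and 6 treated tumors in order along the x axis. The T and NK cell list is highest in controls 2 and 6 and, among tumors, in spontaneous tumors 2 and 3; the interferon response genes are highest in control 2 and spontaneous tumors 2 and 3.

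In the comparison of treated tumors with control lung, 7 of the 12 genes with an ISRE core fell and 5 of the 11 genes with a promoter and no core. Of all tested genes 15% fell. The median log2 fold changes in treated tumors were -1.03 and -0.56. In spontaneous tumors the order was the other way: 0 of the 12 and 2 of the 11 fell, where 12.9% of all tested genes did. The counts are a description of the letters in these windows, they rest on few genes, and a link between a core and the fall was not tested.

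Other probe sets gave a check on the choice of probe set. They share the arrays, so they cannot check the calls against the bioB difference. Of the 16 genes that fell in treated tumors, 7 had 9 further probe sets, all of the same sign, and 8 of these were called. One further probe set of Adar fell in both comparisons with control lung (-0.93 ± 0.20 and -0.75 ± 0.18, adjusted p = 0.0025 and 0.00427), where the probe set used was not called. In spontaneous tumors that of Parp14 also fell (-0.78 ± 0.16, adjusted p = 0.00188), where the probe set used was not called. For 2 genes called in spontaneous tumors the further probe set was not: Dtx3l (0.32 ± 0.15, adjusted p = 0.133) and Xaf1 (-0.42 ± 0.25, adjusted p = 0.221). Those of Ifi35 fell there (adjusted p = 0.00521 and 0.00519). These p-values are adjusted over all probe sets.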

How the data were processed

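The deposited values are on a log2 scale, as their range shows, and the authors made them with RMA, per the submitters' processing notes. RMA in general corrects background, normalizes by quantiles and summarizes the probes of a set; its version is not given in the sources used here. The table holds 45101 probe sets for 18 arrays. Probe sets were named through the platform annotation: 34945 had 1 symbol, 932 several and 9160 none, and 64 were array controls. For each gene the probe set with 1 symbol and the highest mean over the 15 arrays was used. A model with 1 mean per group was fitted with limma 3.58.1 in R 4.3.3 (lmFit, eBayes) over 18193 genes, with Benjamini-Hochberg adjustment. The fit was tested on simulated data. Arrays have no read depth, and their number limits the precision: the median standard error was 0.169, 0.153 and 0.163 log2 units in the 3 comparisons.

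The members and lists were chosen with earlier results of these data known. Every member could be named, and of each other list up to 6 genes with the smallest p in a comparison, plus Cxcl9, chosen after its values were seen. Alternatives covered the arrays used, normalization, low levels, probe sets, the variance model, array weights, technical covariates, a replicate block and each array left out. The study's own ORIOGEN test was not used here.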

Additional observations from a re-analysis of the deposited data

Results flagged for a closer look

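Of 96 groups of arrays examined (32 genes in 3 groups), 10 had 1 array far from the rest of its group by Dixon's test, where chance gives about 1 in 20, or 4.8. That figure takes the genes as independent, whereas within groups their median pairwise correlation was 0.676, against 0.017 for every 10th gene tested. Control 2 was the high array for 5 genes: Stat2 at 8.95, Oasl2 at 10.09, Ifit1 at 10.49, Ifit3 at 12.17 and Ifih1 at 9.19 log2 units. Among treated tumors, tumor 4 was low for Rsad2 at 5.99 and Usp18 at 3.78, and tumor 6 was low for Oas1a at 7.25. Treated tumor 3 was high for Oas3 at 7.09, and treated tumor 1 was high for Rtp4 at 8.24. No spontaneous tumor stood alone by this test. Where the 4 spontaneous tumors split into a high and a low pair, each extreme has a near neighbour, so the test could hardly flag 1.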

How the results depend on the processing

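In treated tumors against control lung, the count of interferon response genes that fell (16) became 1 with all 18 arrays and 0 with bioB as a covariate, and was 14 to 17 with 1 array left out. The count that rose (1) became 0 with bioB and 0 with genes of low mean left out, and stayed 1 with each array left out. All genes called (7065) became 1353 with all 18 arrays and 913 with bioB, and 6083 to 7225 with 1 array left out. With low genes left out 4658 were called, but genes with a mean below the median were then not tested. That count is therefore not a loss of calls to set beside 1353 and 913. In spontaneous tumors the count that fell (3) became 0 with all 18 arrays, 0 with bioB and 1 with the actin covariate, and 1 to 11 with 1 array left out. The count that rose (2) became 0, 0 and, with only the 2 groups fitted, 1, and 0 to 3 with 1 array left out. All genes called (6012) became 746 with all 18 arrays and 308 with bioB, and 4993 to 6177 with 1 array left out. With low genes left out 4004 were called, again of fewer genes tested. Between the tumor groups the 10 genes called became 0 with all 18 arrays, 5 with quantile normalization, 5 with a variance trend, 0 with only 2 groups, 27 with the actin covariate, 1 with bioB, and 0 to 28 with 1 array left out. The cause was not tested. With a replicate block, 15 interferon response genes fell in treated tumors (Ifit2 was lost) and 3 fell and 2 rose in spontaneous tumors, and the genes called between tumor groups became 0. Arrays that share a number did not deviate together (median r -0.025 over 13 pairs), and 2 of 15 arrays matched their own number best. The results listed here are counts, which can move but cannot reverse. For single interferon response genes, no difference called in either fit changed sign. Uncalled differences from control lung did change sign. In spontaneous tumors this happened 23 times with 1 array left out and 22 times in the other settings. In treated tumors it happened 8 and 12 times.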
